A study of Homo sapiens with 12 samples.

Results

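Chromosome 20 was examined through every called interval that lay on it in the 10 deposited lists, 13094 of 416692 intervals in all, with 4480 on the short arm and 8614 on the long arm. The lists come from chromatin immunoprecipitation and sequencing of acetylated (H3K9ac) and dimethylated (H3K9me2) lysine 9 of histone H3 in MDA-MB-231 cells, an established human triple negative breast cancer line. Cells were serum starved overnight and then either left untreated or given 500 µM DETA/NO, a donor that releases nitric oxide slowly, for 24 h, with 2 biological replicates per condition and mark. The starvation was thus shared by both conditions, and all samples are of 1 line. There are 8 libraries with lists, a reproducible H3K9ac set per condition that the authors made from both libraries, and 4 inputs that were not analysed here. Intervals are placed on hg19, counted from 1. The chromosome was chosen by measured values: H3K9me2 islands cover 14.3% of it on average over the 4 libraries, the 4th highest share of 23 chromosomes, so that share is given as a description.

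Dimethylation and acetylation compete for the same lysine. Dimethylation is laid down mainly by the EHMT1 and EHMT2 methyltransferases and builds broad silent domains, many of them at the nuclear periphery. Acetylation is added by enzymes such as KAT2A and KAT2B and sits in short regions at active promoters and enhancers. Nitric oxide can bind the iron of the Jumonji demethylases, which remove methyl groups from this residue. The long arm of chromosome 20 is often gained in breast cancers, and copy number in these cells was not measured here.

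The arms were parted at the longest stretch without any interval, from 26319650 to 29419500, which holds the centromere. It spans 3.1 Mb, against 0.15 Mb for the next longest stretch without intervals. The short arm was taken as the 26.32 Mb before it and the long arm as the 33.49 Mb after it, up to the last interval. No read counts are given, so the depth behind each interval is unknown. Chromosome 20 held 2.83 to 3.73% of each H3K9ac library list and 2.05 to 2.98% of each H3K9me2 list. Untreated H3K9ac replicate 1 stood apart with 4504 peaks on the chromosome, against 1693 in untreated replicate 2 and 2397 and 2207 in the treated libraries. Treated H3K9me2 replicate 1 stood apart as well, with the least coverage of both arms. Differences between conditions that rest on either library are given with and without it. The replicates are called biological, with nothing more said of separate cultures, so p-values measure only the spread between these libraries. Since each condition has 2 libraries, no exact permutation p below 0.333 can be reached for any difference between conditions.

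The arms of chromosome 20 carried H3K9me2 in different forms. On the short arm it lay in many narrow islands. Islands numbered 199 and 208 in untreated cells and 151 and 209 in treated cells, replicates 1 and 2 in that order, and their median width was 10500 and 10000 bp and 11500 and 12500 bp. Long-arm islands were fewer, 100 and 115 untreated and 148 and 107 treated, with median widths of 56250 and 45000 bp and of 30750 and 50500 bp. No short-arm island reached 100 kb in any library, the widest being 44.5 kb, whereas the long arm held 22, 18, 7 and 23 islands of at least 100 kb in the same order of libraries. The widest long-arm island was 250.5 kb, in treated replicate 2.

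Islands covered 9.35% and 9.25% of the short arm in untreated cells and 7.38% and 11.8% in treated cells. They covered 20.3% and 19.2% of the long arm untreated and 17.1% and 21.0% treated. The long arm was covered more in 4 of 4 libraries, by a mean of 9.96 percentage points (exact two-sided sign-flip permutation over 4 libraries, p = 0.125, the smallest that 4 libraries allow). The median island was also wider there in 4 of 4 libraries, at 45625 bp ± 10929 against 11125 bp ± 1109 (SD, n = 4; exact permutation p = 0.125).

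The libraries agreed on where H3K9me2 lay on the long arm far more than on the short arm. The Jaccard index, the shared length divided by the length covered in either of a pair of libraries, ran from 0.167 to 0.227 over the 6 pairs on the short arm and from 0.597 to 0.718 on the long arm. The short arm had 6.22 Mb covered in at least 1 library and 0.201 Mb in all 4, which is 3.22%. The long arm had 8.85 Mb covered in at least 1 library and 3.88 Mb, or 43.8%, in all 4. The pairs share libraries, so these indices are a description. Libraries of the same condition were not the most alike on the long arm, where the highest index, 0.718, joined untreated replicate 1 with treated replicate 2. For H3K9ac the arms were alike: the treated pair had 0.556 on the short and 0.538 on the long arm, and the untreated pair had 0.187 and 0.206, the lowest of the 6 pairs on each arm.

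**Figure D1:**
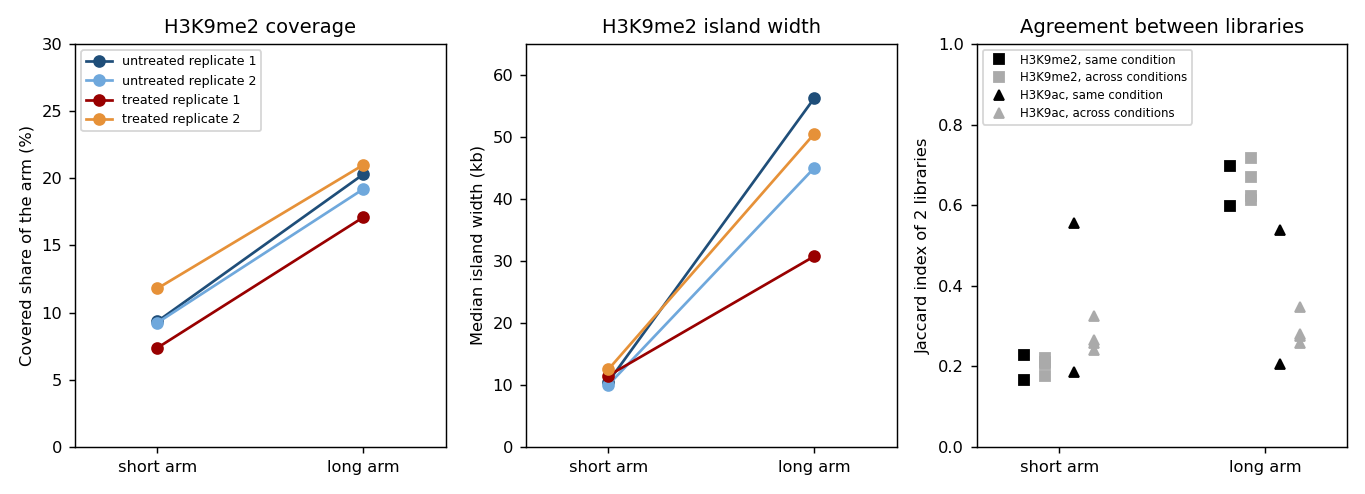
H3K9me2 on the arms of chromosome 20: covered share of each arm in percent, median island width in kb, each line 1 library, and the Jaccard index of each pair of libraries for both marks (black, same condition; grey, across conditions). Every library rises from the short to the long arm in the first 2 panels, and the H3K9me2 indices lie at 0.167 to 0.227 on the short arm and 0.597 to 0.718 on the long arm.

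Exposure to DETA/NO did not move the covered length of either arm beyond the spread between replicates. Short-arm H3K9me2 covered 2.462 and 2.433 Mb in untreated cells and 1.942 and 3.094 Mb in treated cells. The treated libraries lay on either side of both untreated ones, and the mean difference was 0.0705 Mb (exact two-sided permutation p = 1). Long-arm H3K9me2 covered 6.803 and 6.440 Mb untreated and 5.737 and 7.028 Mb treated, again with the treated libraries on either side, and the difference was -0.239 Mb (exact permutation p = 1). Without treated replicate 1 the long-arm difference became 0.406 Mb, and without treated replicate 2 the short-arm difference became -0.505 Mb. The median short-arm island was wider in both treated libraries than in both untreated ones, by 1750 bp (exact permutation p = 0.333, the smallest possible).

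Where at least 3 of the 4 libraries had islands, and gaps of up to 20 kb were joined, the chromosome held 13 H3K9me2 domains of 100 kb or more, all 13 on the long arm. They ran from 103.5 to 1218.0 kb, with a median of 190.0 kb, and made up 4.68 Mb or 14% of that arm. The libraries themselves chose these domains, so their coverage is a description. Islands inside them made up 63.6 to 66.9% of all long-arm H3K9me2 in each library. The absence of short-arm domains holds for this joining distance: with gaps of up to 50 kb joined, 6 of 17 domains lay on the short arm, and with 1 library left out in turn 1 to 4 of 16 to 18 did. With islands of all 4 libraries required, 0 of 12 lay there.

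The domains stood in 3 blocks along the long arm when those less than 1 Mb apart were joined. The proximal block spanned 37918501 to 39118500, 1.2 Mb with 4 domains, and was covered to 82.2% and 86.4% in untreated and 75.4% and 87.5% in treated cells. The middle block spanned 40437001 to 41674000, 1.24 Mb with 4 domains. Its coverage was 85.2% and 66.1% untreated and 51.8% and 85.8% treated, so replicates of 1 condition differed more there than in the proximal block. The distal block spanned 50861501 to 54740500, 3.88 Mb with 5 domains, covered to 76.7% and 72.9% untreated and 63.5% and 79.9% treated. Treated replicate 1 was the lowest of the 4 libraries in all 3 blocks, and treated replicate 2 was the highest.

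**Figure D2:**
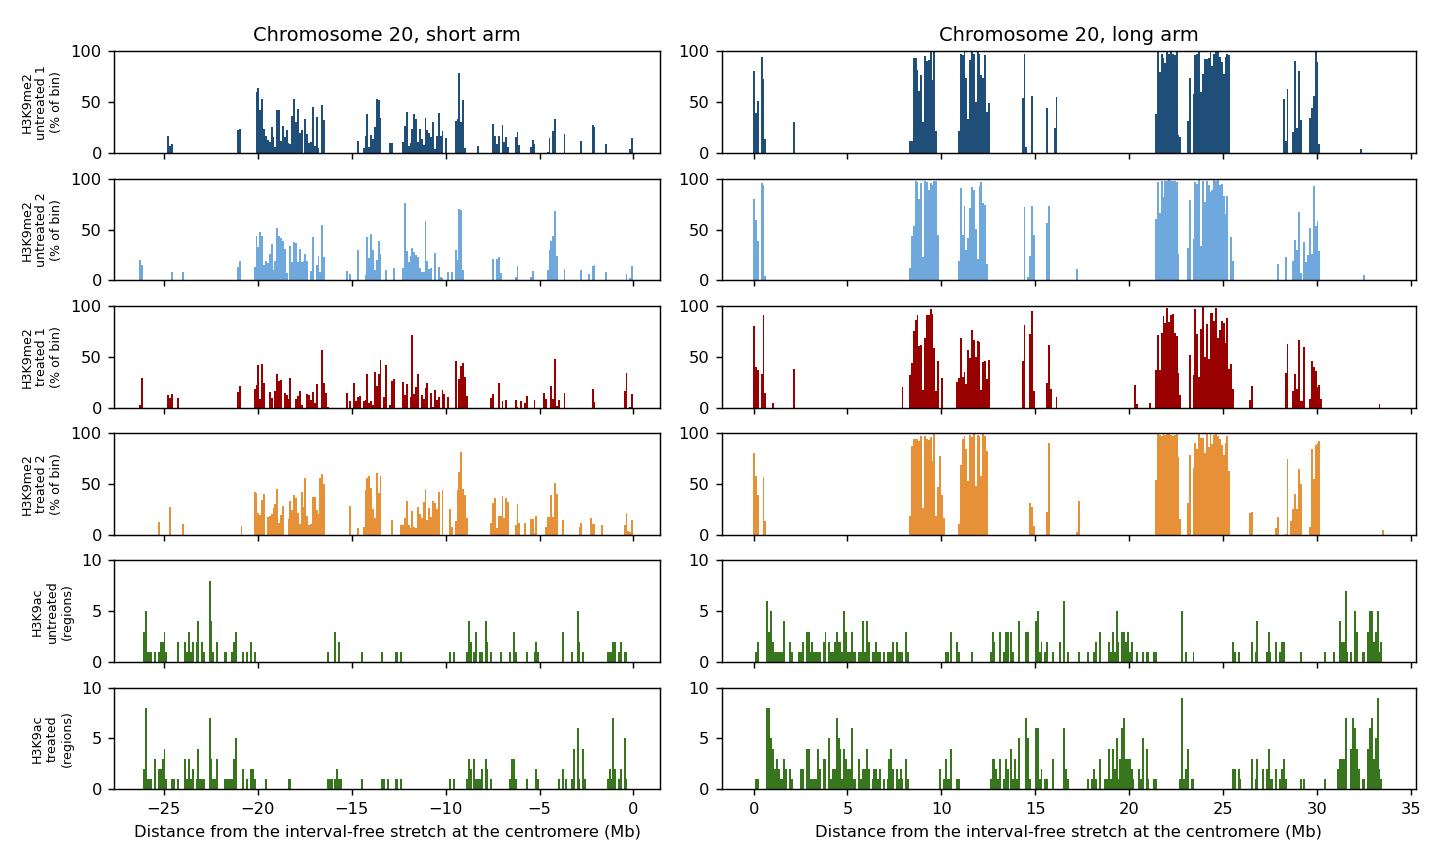
H3K9me2 and H3K9ac along chromosome 20 in bins of 100 kb, as distance in Mb from the interval-free stretch at the centromere (short arm left, long arm right). Blue, red and orange bars give the percent of each bin under H3K9me2 islands in 1 library, and green bars give the number of reproducible H3K9ac regions that touch the bin; H3K9me2 stands in tall blocks on the long arm and in low scattered bars on the short arm, and H3K9ac regions of the long arm lie mainly between those blocks.

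The longest domain, at 53300501 to 54518500, was covered to 91.9% and 92.7% in untreated cells and 80.4% and 91.9% in treated cells. It was made of 20 and 19 islands untreated and 22 and 23 treated, so it is a chain of islands with short breaks in each library. The next longest, at 50861501 to 52017000 and 1155.5 kb long, was covered to 95.6% and 93.7% untreated and 79.5% and 98.8% treated. It consisted of 9 and 14 islands untreated, 19 in treated replicate 1 and 7 in treated replicate 2. Its borders were placed much alike in the 4 libraries. With islands joined in the same way per library, the left border lay at 50861501 and 50837501 untreated and at 50863001 and 50846001 treated, a spread of 25.5 kb. The right border lay at 52013000 and 52026500 untreated and 52017000 and 52072000 treated, a spread of 59.0 kb.

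Of the other long domains, the one at 52859001 to 53259000 (400.0 kb) was covered to 98.5% and 91.4% untreated and 72.9% and 93.5% treated. That at 38504501 to 38897500 (393.0 kb) had 95.5% and 95% untreated and 88.4% and 95.4% treated. The domain at 37918501 to 38263500 (345.0 kb) had 90.4% and 89.7% untreated and 91.0% and 95.1% treated, and it was among the few in which treated replicate 1 was not the lowest library. Treated replicate 1 was lowest in 11 of the 13 domains. Over all 13 domains together coverage was 94.7% and 92.0% untreated and 77.9% and 95.5% treated, a mean difference of -6.66 percentage points (exact two-sided permutation p = 1). The treated libraries again lay on either side of the untreated ones, and without treated replicate 1 the difference was 2.15 percentage points.

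**Figure D3:**
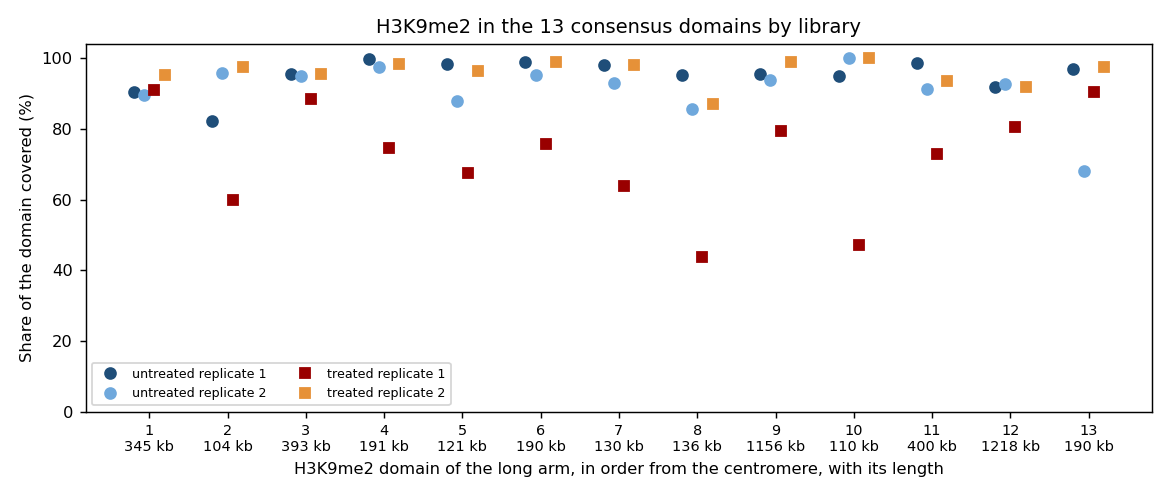
Share of each of the 13 H3K9me2 domains covered by islands, in percent, with 1 point per library; domains are numbered from the centromere outward and labelled with their length in kb. Circles are untreated and squares treated libraries, and treated replicate 1 lies lowest in 11 of the 13 domains.

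The gaps between blocks carried H3K9ac. The longest gap, 9.19 Mb from 41674001 to 50861500, was covered by H3K9me2 to 4.78 to 6.29% in the 4 libraries and held 94 reproducible H3K9ac regions in untreated cells, covering 115.3 kb, and 141 in treated cells, covering 225.6 kb. Library peaks covered 344.4 and 125.5 kb of this gap untreated and 316.6 and 208.3 kb treated, with untreated replicate 1 the highest, so the conditions overlapped. The gap between the proximal and middle blocks, 1.32 Mb from 39118501 to 40437000, held 8 untreated regions over 8.7 kb and 14 treated regions over 21.6 kb. Library peaks in this second gap covered 36.0 and 11.4 kb untreated and 26.0 and 19.6 kb treated, again with overlap. Its first reproducible region began at 39657360 in the untreated set and at 39317308 in the treated set. In the bin at 39300001 to 39400000, library peaks covered 2359 and 175 bp untreated and 1408 and 1347 bp treated. The conditions thus overlapped there, and the earlier start is a difference between the reproducible sets.

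The gap within the distal block, 0.551 Mb from 52017001 to 52568500, lay between the first and second of its domains. It held 6 untreated regions over 6.0 kb between 52205891 and 52445929 and 17 treated regions over 24.2 kb between 52194903 and 52566378. Library peaks there covered 18.7 and 9.1 kb untreated and 34.2 and 15.3 kb treated, so treated replicate 2 fell below untreated replicate 1. The last treated region ended 2.1 kb before the next H3K9me2 domain, whereas the last untreated region lay 122.6 kb from it. Both distances are to the domain border at 52568501, which was set from islands of at least 3 libraries. With islands joined per library, this border lay at 52568001 and 52568501 untreated and at 52625001 and 52568501 treated. Treated replicate 1 covered 47.1% of the domain, so the distance of 2.1 kb does not hold for its own islands. The bin at 52200001 to 52300000 held 9 treated regions, a number that 2 bins of the long arm reached and none passed. Each condition has 1 reproducible set, so these differences in region number have no replicate test.

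**Figure D4:**
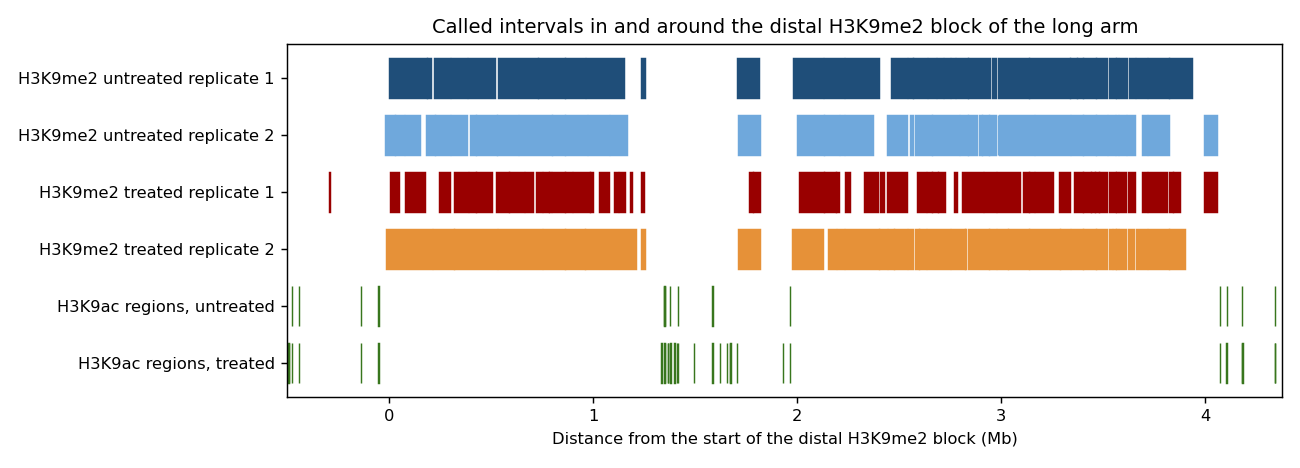
Called intervals in and around the distal H3K9me2 block, as distance in Mb from its start. Rows are H3K9me2 islands of each library and reproducible H3K9ac regions of each condition; the acetylated gap holds 6 untreated and 17 treated regions, and none lies in the domains to either side.

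Inside the domains reproducible H3K9ac was nearly absent. Of the 13 domains, 12 held no reproducible region of either condition. The exception was 1 untreated region of 326 bp at 41030489 to 41030814 in the middle block, which lay wholly within islands of all 4 H3K9me2 libraries and had no counterpart in the treated set. Single-library peaks did lie there, and their number differed between libraries. The domains held 244 and 60 peaks of the untreated H3K9ac libraries and 5 and 67 of the treated ones. That is 52.1 and 12.8 per Mb untreated and 1.07 and 14.3 per Mb treated, against 99, 33.1, 59.6 and 52.1 per Mb in the rest of the long arm. Treated replicate 1 was nearly free of peaks in the domains, while untreated replicate 2 and treated replicate 2 were close to each other (exact two-sided permutation p = 0.667 between conditions). The mean difference was -116 peaks, and -24 without untreated replicate 1.

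Outside the domains the long arm ended on both sides in segments with many H3K9ac regions, though not throughout. From the centromere to the first domain, 8.5 Mb, H3K9me2 covered 4.37 to 5.11% in the 4 libraries, and there were 113 untreated and 154 treated H3K9ac regions. From the last domain to the end of the arm, 8.17 Mb, H3K9me2 covered 7.11 to 9.91%, with 79 untreated and 115 treated regions. Within this distal segment, 58000001 to 59000000 was covered to 24.9% and 24.5% untreated and 20.7% and 21.9% treated. It held 1 untreated and 2 treated regions. The next window, 59000001 to 60000000, was covered to 33.4% and 31.2% untreated and 18.2% and 41.8% treated, with 1 region in each set. The first 600 kb of the long arm was unlike what followed it. H3K9me2 covered 59.0% and 62.1% of it untreated and 49.2% and 41.2% treated, and it held 3 untreated and 2 treated H3K9ac regions. Both marks were called at the same bases here: the untreated regions at 29611133 to 29612576 and 29627193 to 29627565 lay wholly inside islands of both untreated libraries. The treated region at 29611220 to 29613523 overlapped islands by 1023 bp in treated replicate 1 and by its full 2304 bp in treated replicate 2. Apart from these and the region in the middle block, no reproducible region of the chromosome overlapped an island of its own condition.

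The short arm held its H3K9me2 in wide zones with few acetylated regions. The longest such zone in untreated cells ran over 38 bins of 100 kb from 6200001 to 10000000 without a reproducible H3K9ac region or a bin covered to 50% in both libraries. Islands covered 25.5% and 25.3% of it untreated and 14.4% and 26.4% treated, in 79 and 79 islands untreated and 40 and 70 treated. Treated cells had 2 regions in this zone, covering 3.4 kb. A zone from 14000001 to 16500000 had no reproducible region in either condition, and islands covered 19.5% and 18.0% untreated and 14.6% and 19.7% treated. A zone from 11900001 to 12900000 was alike, at 26.6% and 24.2% untreated and 20.0% and 41.3% treated. Of 3 other long short-arm runs without a reproducible region in untreated cells, that at 21300001 to 22500000 was covered to 5.92% and 18.0% untreated and 9.25% and 16.1% treated. At 10700001 to 11800000 islands covered 1.09 to 6.73% in the 4 libraries, and at 23700001 to 24900000 2.00 to 5.21%. Each of these 3 runs held 1 treated region.

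The stretches of the short arm that at least 3 libraries shared were short, 109 in number with a median of 7.0 kb. The widest, chosen after values were seen because no domain lay on this arm, was 28 kb at 17067001 to 17095000. It was covered completely in both untreated libraries and in treated replicate 2 and to 53.6% in treated replicate 1. Next came 26.5 kb at 6514501 to 6541000, covered to 96.2% and 92.5% untreated and 92.5% and 50.9% treated. The nearest reproducible H3K9ac region of either set lay 355.1 kb from the first and 206.8 kb from the second.

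H3K9ac was denser on the long arm. The untreated reproducible set had 135 regions on the short arm (5.13 per Mb) and 302 on the long arm (9.02 per Mb), and the treated set had 176 (6.69 per Mb) and 443 (13.2 per Mb). The covered length was 172.0 kb untreated and 342.2 kb treated on the short arm and 415.3 and 790.6 kb on the long arm, ratios of 1.99 and 1.90, against 2.19 over all chromosomes. The number of regions differed by 1.3 and 1.47 times, against 1.47 over all chromosomes. Regions were wider in the treated set on both arms, with medians of 1186 and 1752 bp on the short arm and 1251.5 and 1432 bp on the long arm.

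In the full single-library lists the conditions overlapped in covered length. On the short arm peaks covered 528.4 and 241.5 kb in untreated and 450.5 and 336.0 kb in treated cells (difference 8.33 kb, exact two-sided permutation p = 1). Long-arm peaks covered 1257.9 and 441.4 kb untreated and 1067.7 and 791.1 kb treated (difference 79.8 kb, exact permutation p = 1). On both arms the treated libraries lay between the untreated ones, which differed from each other the most. The direction turned without untreated replicate 2, to -135.1 kb on the short arm and -328.5 kb on the long arm, and without untreated replicate 1 the differences were larger than with it, at 151.7 and 488.0 kb. It turned also without treated replicate 1, to -48.9 and -58.6 kb. With lists of equal length, each cut to its top intervals, the differences were 90.8 kb on the short arm and 306.9 kb on the long arm, with both treated libraries above both untreated ones (exact permutation p = 0.333, the smallest possible). In the upper 50% of each list by score they were 97.1 and 264.4 kb (exact permutation p = 0.667).

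Splitting the peaks by whether they met a reproducible region of either condition separated these libraries. On the long arm peaks covered 467.2 and 332.0 kb inside such regions in untreated cells and 777.8 and 629.3 kb in treated cells, both treated libraries above both untreated ones. Outside them they covered 790.7 and 109.4 kb untreated and 290.0 and 161.8 kb treated, where untreated replicate 1 stood alone. Short-arm lengths inside were 186.1 and 144.9 kb untreated and 336.7 and 271.1 kb treated, and outside 342.3 and 96.6 kb untreated and 113.8 and 64.9 kb treated. The exact permutation p was 0.333 for the lengths inside on each arm, the smallest possible. The libraries themselves gave these regions, with more contributed by treated cells, so the lengths inside are a description. In untreated replicate 1, 84.4% of short-arm and 82.7% of long-arm peaks lay outside, against 48.6 to 72.3% in the other libraries and arms.

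**Figure D5:**
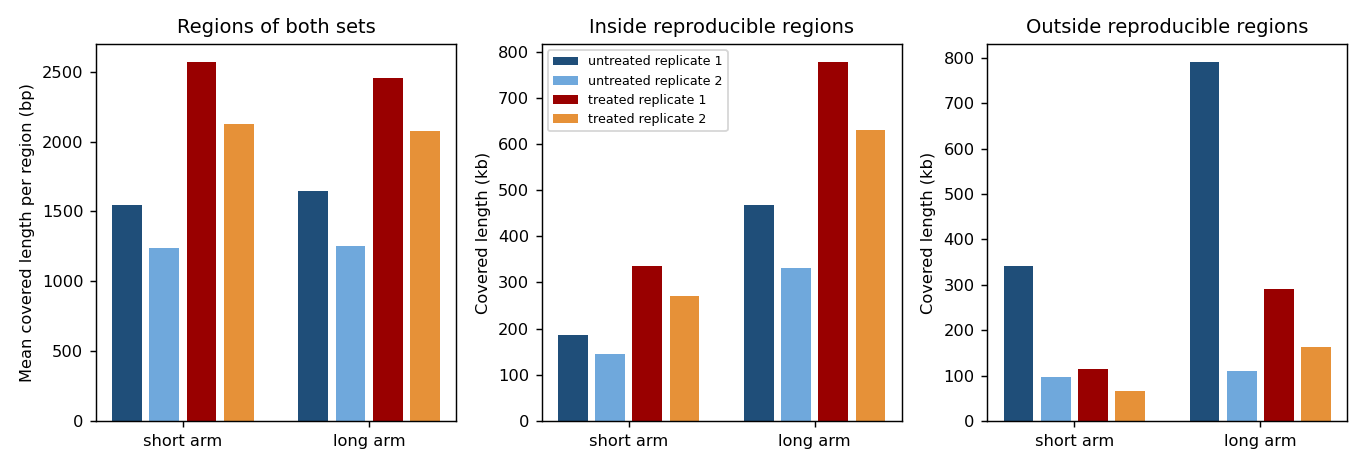
H3K9ac by library and arm: mean covered length in bp per region that both reproducible sets share, covered length in kb inside reproducible regions of either condition, and covered length in kb outside them. Each bar is 1 library; both treated libraries exceed both untreated ones in the first 2 panels, and untreated replicate 1 exceeds the other 3 in the last.

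In regions that both reproducible sets shared, the treated libraries covered more bases on both arms. There were 110 such merged regions on the short arm and 246 on the long arm. Peaks covered a mean of 1542.5 and 1240.2 bp per short-arm region untreated and 2569.6 and 2126.0 bp treated, a ratio of 1.69. Long-arm means were 1648.6 and 1254.9 bp untreated and 2456.1 and 2072.4 bp treated, a ratio of 1.56. Over the chromosome the difference was 857.0 bp (1433.1 bp ± 258.5 untreated, 2290.1 bp ± 284.4 treated; SD of library means, n = 2; exact two-sided permutation p = 0.333). Both treated libraries exceeded both untreated ones in 100 of 110 short-arm regions, or 90.9%, and in 201 of 246 long-arm regions, or 81.7%, beside 89.9% of the 11387 shared regions of the genome. The reverse order held in 1 region on each arm. Merged regions take the outer bounds of both sets, so their extent depends on the condition with wider regions.

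The widest treated region of the short arm, 9803 bp at 5091917 to 5101719, overlapped 3 untreated regions that filled 3508 bp of it. Peaks covered 3369 and 2567 bp of it untreated and 9686 and 7163 bp treated. The next, 6807 bp at 17946141 to 17952947, was covered over 3956 and 4805 bp untreated and 6807 and 5806 bp treated. That at 303989 to 309880 had 3152 and 3555 bp untreated and 5735 and 5001 bp treated. The widest of the long arm, 9884 bp at 30303715 to 30313598, had 7511 and 6569 bp untreated and 9681 and 7853 bp treated. The region at 57462725 to 57470346 went from 5197 and 4292 bp to 7622 and 6339 bp, and that at 45983549 to 45990132 from 4662 and 4345 bp to 6584 and 5369 bp. The conditions did not overlap in any of these 6 regions. They were picked for their treated width, which favours that order, and 89.9% of shared regions of the genome have it. Which genes lie at these and other positions was not looked up, for want of an annotation of the same build.

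Regions called gained were in the treated set and met no peak of either untreated library, and those called lost the reverse. Gained regions made up 15.1% of treated regions over all chromosomes. On chromosome 20 they numbered 97 of 619, or 15.7%, with 29 of 176 on the short arm (16.5%) and 68 of 443 on the long arm (15.3%), all near that background. Lost regions were 22 of 437, or 5.03%, against 4.4% over all chromosomes, with 4 of 135 on the short arm (2.96%) and 18 of 302 on the long arm (5.96%). The gained regions of the short arm had a median width of 540 bp and those of the long arm 664 bp, against 1975 and 1679 bp for the other treated regions. Without untreated replicate 1 there were 195 gained regions in place of 97, and with equal numbers of top regions in both sets there were 7. That second setting cut only the treated set, to the 14377 regions of the untreated set. Lost regions therefore stayed at 22 by construction. Shares over all chromosomes were not computed for these settings.

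The highest-scoring gained region, 3802 bp at 44407839 to 44411640 on the long arm, was covered over 3802 and 3351 bp in the treated libraries and not at all in the untreated ones, and lay 0.2 kb from its nearest treated neighbour. Others of the long arm were at 62313065 to 62313881, with 750 and 688 bp in the treated libraries and also 0.2 kb from a neighbour, and at 32803268 to 32804000, with 733 and 447 bp and 85.8 kb from the next region. Short-arm gained regions lay at 23603253 to 23604197 (945 and 485 bp), 13010262 to 13010701 (440 and 345 bp) and 18036990 to 18038012 (1023 and 576 bp). Lost regions were shorter. On the long arm they were 261 bp at 56183562 to 56183822, 482 bp at 61499061 to 61499542 and 306 bp at 42934694 to 42934999. On the short arm they were 310 bp at 23475464 to 23475773, 273 bp at 21015565 to 21015837 and 331 bp at 12978787 to 12979117.

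In bins of 100 kb, with 50% coverage as the limit for H3K9me2, the marks alternated on the long arm and hardly at all on the short arm. Short-arm islands were at most 44.5 kb wide, so a bin there could reach this limit only through more than 1 island. In single libraries 8 and 7 short-arm bins reached it untreated and 2 and 11 treated, before both libraries were required. Other limits were not split by arm. A bin counted as H3K9me2 where islands took at least 50% of it in both libraries of a condition, and as H3K9ac where a reproducible region of that condition touched it. Of the 336 long-arm bins of untreated cells, 58 were H3K9me2, 151 H3K9ac, 1 both and 126 neither. Treated cells had 48, 174, 0 and 114. Of the 264 short-arm bins, 1 was H3K9me2, 76 H3K9ac and 187 neither in untreated cells, and 1, 96 and 167 in treated cells. The bin that held both was 41000001 to 41100000, with the 326 bp region of the middle block.

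Going along the long arm the mark changed between H3K9me2 and H3K9ac 21 times in untreated and 17 times in treated cells, skipping bins with neither. It changed on the short arm 2 times in each. Over both arms there were 23 changes in untreated and 19 in treated cells. With 1 library left out there were 31 and 27 in untreated and 27 and 25 in treated cells, without replicates 1 and 2. A changeover passed through a median of 1 bin with neither mark in untreated cells and 0 in treated cells on the long arm, and H3K9me2 and H3K9ac bins touched directly at 6 and 9 places. The longest H3K9me2 runs were 14 bins from 53300001 to 54700000 and 11 bins from 50900001 to 52000000 in untreated cells. In treated cells the longest was 10 bins from 53700001 to 54700000. Both treated libraries had to cover a bin, and they differed in the untreated runs. The run of 14 bins was covered to 92.4% and 89.9% untreated and 79.5% and 92.4% treated. That of 11 bins was covered to 95.8% and 93.5% untreated and 78.6% and 98.8% treated. The longest H3K9ac runs were 15 bins from 33400001 to 34900000 in both conditions and 16 bins from 48100001 to 49700000 in treated cells. In the run of 15 bins H3K9me2 was 0 in all 4 libraries, and peaks of H3K9ac covered 80.0 and 39.5 kb untreated and 101.5 and 74.1 kb treated.

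Bins with neither mark were of different kinds on the arms. On the short arm 119 of the 187 such untreated bins held some H3K9me2, with a mean coverage of 12.5% over all 187, and in the 76 H3K9ac bins mean coverage was 0.365%. On the long arm 39 of 126 held some, with a mean of 8.56%, against 2.17% in the H3K9ac bins. In treated cells mean coverage was 13.4% in neither bins and 2.28% in H3K9ac bins on the short arm, and 15.9% and 2.82% on the long arm. Across bins, H3K9me2 coverage and the number of H3K9ac regions had a Spearman's rho of -0.510 and -0.531 on the short arm and -0.461 and -0.542 on the long arm, untreated and treated, with n = 264 and 336 bins that share libraries and neighbours. Reproducible regions stayed far from islands of their own condition, at a median of 243.5 kb untreated and 193.2 kb treated on the short arm and 624.7 and 444.2 kb on the long arm. Within 10 kb of an island lay 0 of 135 and 2 of 176 short-arm regions and 8 of 302 and 14 of 443 long-arm regions.

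Most bins kept their state between conditions, 238 of 264 (90.2%) on the short arm and 279 of 336 (83.0%) on the long arm. No bin went from H3K9ac to H3K9me2 or the reverse on either arm. The short arm had only 1 H3K9me2 bin in each condition, so it could hardly show such a change. Bins that turned from neither to H3K9ac numbered 22 on the short arm and 29 on the long arm, and 2 and 6 turned from H3K9ac to neither. Of the 22 and 29, both untreated libraries had peaks in 19 and 26. Over all bins, untreated replicate 2 had a peak in 227 of 264 and 289 of 336 and untreated replicate 1 in 259 and 332, so these shares are near those of any bin. In the long arm 16 bins were H3K9me2 in untreated cells only and 5 in treated cells only. Treated replicate 2 still covered 12 of the 16 to at least 50%, and treated replicate 1 covered 2 of them. Asked of 1 library at a time, the number of H3K9me2 bins on the chromosome was 79 and 72 in untreated cells and 54 and 84 in treated cells, so the treated libraries lay on either side of the untreated ones. With both libraries required it was 60 and 49.

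With all libraries and no replicate block, no bin of chromosome 20 passed the test for change in either mark. In a limma fit to the arcsine square root of the covered share of 10583 bins of the genome, 0.0% were called higher or lower in treated cells at a Benjamini-Hochberg adjusted p under 0.05. Of these, 281 were on chromosome 20, 152 on the short arm and 129 on the long arm. An unadjusted p under 0.05 was found in 11 of the 281, 5 higher and 6 lower, and in 2.96% of all bins. For H3K9ac the fit to 27253 bins also called 0.0% in either direction. On chromosome 20, 105 of 599 bins had an unadjusted p under 0.05, 11 higher and 94 lower in treated cells, beside 14.9% of all bins. That split changed with the list: in the upper 50% of each list by score it was 48 higher and 33 lower. Leaving out a library leaves 1 sample in a condition, which is then assumed to vary like the other condition. Only median differences of the transformed share, treated minus untreated, are therefore given. For H3K9me2 the median over chromosome 20 bins was -0.072 without treated replicate 2, beside 0.0709 over all bins of the genome. Without treated replicate 1 it was 0.0478, beside -0.0712. For H3K9ac it was 0.0207 without untreated replicate 1 and -0.0608 without untreated replicate 2, beside 0.0173 and -0.0449.

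The largest difference in H3K9me2 was at 29800001 to 29900000, beside the centromere. Islands covered 95% and 96% of this bin in untreated cells and 33.0% and 0.0% in treated cells (limma, adjusted p = 0.841). Next in that direction came 41500001 to 41600000 in the middle block, from 77.0% and 96.5% to 17.0% and 57.5%, and 43800001 to 43900000, from 97.5% and 72.5% to 81.5% and 0.0%. At 39100001 to 39200000 coverage was 22.0% and 97.5% untreated and 16.0% and 18.5% treated, and at 14100001 to 14200000, on the short arm, 26.5% and 76.5% untreated and 12.5% and 16.5% treated. In the last 2 of these bins 1 untreated library lay close to the treated ones. At 43800001 to 43900000 the conditions overlapped, since treated replicate 1 lay between the untreated libraries.

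Higher mean coverage in treated cells was seen in 5 bins of the long arm named by the same rule. At 53200001 to 53300000, which takes in the end of a long domain of the distal block and the gap after it, islands covered 60.0% and 33.5% untreated and 77.5% and 95.5% treated (limma, adjusted p = 0.841). At 44100001 to 44200000 the values were 0.0% and 24.0% untreated and 72.0% and 31.5% treated, and this bin held 1 treated H3K9ac region and no untreated one. At 45100001 to 45200000 they were 0.0% and 73.5% untreated and 62.0% and 90.5% treated, and the conditions overlapped. The bin at 39300001 to 39400000 was covered in treated replicate 2 alone, to 78.0%, and held 2 treated H3K9ac regions. At 59500001 to 59600000 coverage was 9.0% and 29.0% untreated and 22.0% and 92.0% treated, with overlap again.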

How the data were processed

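Interval lists of 8 libraries and 2 reproducible H3K9ac sets on hg19 were used, and the 4 inputs were not analysed here. Per the submitters' processing notes, the authors' tools included SICER, MACS2, Picard, BWA 0.7.5 and Trimmomatic 0.32. Which of them made which list is not given in the sources used here. Each deposited list gives starts, ends and a score per interval, the authors' own, used only to rank within a list. In the reproducible sets the deposited score was taken as a −log10 of an irreproducible discovery rate, a q-value type of measure, from its lowest value of 1.301. Other deposited columns hold starts, ends and names. The lists hold no counts, so depth is unknown and no count test was run. No per-sample column was left unmapped (0).

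Covered lengths were computed per library, arm and 100 kb bin with Python 3.11.15, pandas 2.3.3 and numpy 2.4.6. Arms were split at 28 Mb, inside a stretch that no interval touches. Differences between conditions were tested by exact two-sided permutation over libraries, and bins by limma 3.58.1 (R 4.3.3) with Benjamini-Hochberg adjustment over all bins of the genome. The code of the fit was also run on simulated bins with a common spread, which does not show how the fit behaves on these lists. Any overlap of 1 bp counted for gained and lost regions. Regions named are the 5 longest domains, the 3 longest gaps, and per arm the 3 widest treated and the 3 highest-scoring gained and lost regions, with the 5 bins of largest H3K9me2 difference in each direction and bins with both marks. The chromosome, the members and these choices were made with earlier results of these data known. Alternatives were other covers, bin sizes, joining distances, list sizes, a replicate block and leaving out each library.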

Additional observations from a re-analysis of the deposited data

How the results depend on the processing

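Of 92 alternatives over 16 results, 66 kept the direction and side of the threshold or moved a count by less than 1.5 times, 19 moved a count further and 7 turned a direction. The 66 include replicate blocks for covered lengths and for width of shared regions, which could not change those differences. They also include lost regions with equal numbers of top regions, which could not change either. Results tested by permutation could not pass the threshold, so for them only the direction could turn. Leaving out each library in turn gave treated minus untreated differences in covered H3K9me2 of -0.505 to 0.646 Mb on the short arm and -0.884 to 0.406 Mb on the long arm. For H3K9ac they ran from -135.1 to 151.7 kb and from -328.5 to 488.0 kb. The same exclusions gave 0 to 36 limma bins of chromosome 20 for H3K9me2, 0 to 99 for H3K9ac, 120 to 195 gained regions, 24 to 27 lost regions, 16 to 18 domains and a width difference of 655.9 to 1058.1 bp in shared regions. They gave, chosen after seeing the data, -15.5 to 2.15 percentage points for coverage of the domains and -208 to -24 H3K9ac peaks in them. H3K9me2-covered bins numbered 72 to 79 in untreated and 54 to 84 in treated cells, with 27 to 31 and 25 to 27 alternations. Gained regions numbered 226 where 50% of the region had to be overlapped and 7 with equal numbers of top regions. Over both arms together, with 20% of a bin as the limit, untreated and treated cells had 107 and 103 H3K9me2 bins. Their alternations numbered 29 and 35, the reverse of the order of 23 and 19 at 50%. With 80% they had 36 and 21 bins and 11 and 7 alternations. Bins of 50 kb gave 126 and 100 H3K9me2 bins, of more bins in all, and 29 alternations in each. The cause of these moves was not tested, beyond fewer samples and the changed limits themselves. Unknown depth limits every list.

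When replicate numbers entered as a block, limma called 2 of 281 H3K9me2 bins of chromosome 20 (0 higher, 2 lower). Over the genome it called 5 higher and 14 lower of 10583. For H3K9ac it called 90 of 599 bins of chromosome 20 (69 higher, 21 lower). Over the genome it called 3019 higher and 241 lower of 27253, so such calls were not particular to this chromosome. Differences in covered length and in width of shared regions stay the same under such a block by construction. Other results were not run with it. With crossed numbers, chosen after seeing the data, limma called 0 for each mark. Deviations of same-numbered libraries correlated over bins at -0.157 for H3K9me2 and 0.022 for H3K9ac. With 2 libraries per condition this cannot show whether same-numbered libraries were handled together.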
